A study of Mus musculus with 9 samples.

Results

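The genes described here encode MAP kinases and MAP kinase-activated protein kinases, and they were chosen by name as 9 of the 55401 mouse genes in the expression table. They are Mapk3 (the protein ERK1), Mapk8 and Mapk9 (JNK1 and JNK2), Mapk14, Mapk11, Mapk12 and Mapk13 (p38α, p38β, p38γ and p38δ), and Mapkapk2 and Mapkapk3 (MK2 and MK3). RNA was sequenced from RAW264.7 cells, a mouse macrophage line from a male tumor induced by Abelson murine leukemia virus, wild type by label and the only line used. The cells received the solvent DMSO, DMSO with LPS, or LPS with skatole (Ska), each for 24 h by the labels, and the groups are called DMSO, LPS and LPS + Ska below. LPS is lipopolysaccharide, a component of the outer membrane of Gram-negative bacteria that activates macrophages, and skatole is an indole made by gut bacteria from tryptophan. Each group had 3 samples, numbered 5, 6 and 7 in every group, and nothing in the labels says whether they came from separate cultures, so p-values measure the spread between these samples only.

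MAP kinases are the last tier of a relay of protein kinases in which a MAP3K phosphorylates a MAP2K and the MAP2K phosphorylates the MAP kinase. In macrophages the receptor for LPS, Tlr4, feeds this relay through TAK1 and Tpl2, and the ERK, JNK and p38 kinases then act on transcription factors, while p38α activates MK2, which stabilizes and promotes translation of cytokine mRNAs such as that of TNF. The kinases are switched on by phosphorylation, which RNA levels do not measure. In bulk RNA, fewer cells that express a gene and less of its RNA per cell cannot be told apart.

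The site of that switch is shown because it defines the families compared below. Each MAP kinase carries, in a loop between the kinase motifs DFG and APE, a threonine and a tyrosine separated by 1 residue, and a MAP2K phosphorylates both. The coding sequence of the loop from the D of DFG to the E of APE is given 5′ to 3′ for each MAP kinase gene, from GENCODE transcripts of mouse build GRCm38, with the codons for threonine, the middle residue and tyrosine in capitals.
Mapk3 (ERK1): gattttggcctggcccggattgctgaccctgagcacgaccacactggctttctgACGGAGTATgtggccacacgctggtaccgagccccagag
Mapk8 (JNK1): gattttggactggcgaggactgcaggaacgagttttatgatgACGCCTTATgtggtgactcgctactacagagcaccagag
Mapk9 (JNK2): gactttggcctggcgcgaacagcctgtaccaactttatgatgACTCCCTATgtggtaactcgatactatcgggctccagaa
Mapk14 (p38α): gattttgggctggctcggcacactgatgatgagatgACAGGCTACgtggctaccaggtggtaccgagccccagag
Mapk11 (p38β): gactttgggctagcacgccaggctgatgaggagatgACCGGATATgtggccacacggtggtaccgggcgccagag
Mapk12 (p38γ): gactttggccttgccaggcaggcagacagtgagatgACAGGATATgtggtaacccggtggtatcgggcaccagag
Mapk13 (p38δ): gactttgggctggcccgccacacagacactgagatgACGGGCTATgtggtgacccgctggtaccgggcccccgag
The middle codon encodes glutamate in ERK1, proline in both JNK genes and glycine in the p38 genes. The segment lies in exon 4 of 7 of Mapk3 (chr7:126763404-126763496, plus strand), in exon 6 of 12 of Mapk8 (chr14:33392973-33393053, minus strand) and of Mapk9 (chr11:49872788-49872868, plus strand), and in exon 7 of 12 of each p38 gene. For p38β this is chr15:89145836-89145910 on the minus strand, and for p38α it is chr17:28728363-28728437 on the plus strand. Over the 75 bases of the p38 segment, Mapk12 and Mapk13 were identical at 61 positions (81.3%). Mapk14 shared 60 (80%) with Mapk11, 60 (80%) with Mapk13 and 56 (74.7%) with Mapk12. Mapk11 shared 59 (78.7%) with Mapk12 and 58 (77.3%) with Mapk13. Mapk8 and Mapk9 shared 61 of 81 bases (75.3%).

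The p38 genes lie in 2 neighbouring pairs. Mapk12 (chr15:89130584-89140703) and Mapk11 (chr15:89142486-89149628) are both on the minus strand of chromosome 15, with 1782 bases and no annotated gene between them. Mapk14 (chr17:28691329-28748406) and Mapk13 (chr17:28769297-28780233) are both on the plus strand of chromosome 17, with 20890 bases and no annotated gene between them. Annotated genes overlap Mapk8 (2 processed pseudogenes), Mapk14 (1 short protein-coding gene, AC170998.1) and Mapkapk2 (a small nuclear RNA and an unclassified transcript). Whether reads were counted by strand is not given in the sources used here, so the values of these 3 genes may hold reads of the overlapping genes.

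The values are TPM, a gene's share of the transcripts in a sample, which are corrected for gene length and scaled to the same total in each sample. Column totals ran from 999895 to 1000145 TPM, and from 12498 to 13012 genes in a column reached a TPM of 1. Sequencing depth cannot be read from TPM and is unknown. The columns of the 2 groups with LPS are tied to each other within each group. Among genes with all 3 columns above 0, replicate 5 equalled the mean of replicates 6 and 7, to within 1e-05 TPM, in 17950 of 17950 genes with LPS and in 17658 of 17658 with LPS + Ska, against at most 0.0636% of 15721 genes in DMSO. Each gene thus has no more than 2 independent values in these groups, and their SDs below are over 3 tied columns. Fold changes were therefore also fitted to the 2 values recovered from each tied trio. That result is given wherever it changes the call of a named gene. Macrophage markers were abundant, with 9 genes summing to between 7244 and 13837 TPM per column, and 17 markers of fibroblasts, lymphocytes, endothelium and epithelium reached at most 0.672 TPM each. Within the macrophage list 5 of 9 genes fell with LPS, among them Lyz2, the lysozyme gene that is the largest part of the sum, and Lyz2 rose in LPS + Ska compared with LPS. Whether these shifts bear on the kinase genes was not tested.

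Genes were called changed at an adjusted p below 0.05 (limma on log2(TPM + 1), adjusted over the 12819 genes whose TPM averaged 1 or more) together with a fold change above 1.5 or below 0.67. Of all genes tested, 1630 were called higher and 2559 lower in LPS compared with DMSO, 429 higher and 787 lower in LPS + Ska compared with LPS, and 1457 higher and 3243 lower in LPS + Ska compared with DMSO. With the columns rescaled by the median ratio these splits were 2001 and 2101, 595 and 540, and 2212 and 2246. The median log2 fold change of all genes was -0.07, -0.10 and -0.18 in these comparisons, and 0.01, 0.00 and 0.00 after rescaling. The LPS-responsive cytokine and mediator genes used as a check rose in LPS compared with DMSO for 10 of 10 genes, among them Acod1, an enzyme that makes itaconate, by 4.87 on the log2 scale, while Nos2, the inducible nitric oxide synthase, was listed at 0 in DMSO and averaged 37.5 TPM with LPS.

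RAW264.7 cells expressed 7 of the 9 kinase genes above the limit for testing, and the order of their levels was the same in the 3 groups. Mapkapk2 was the highest, at 304 ± 34.2 TPM (SD, n = 3) in DMSO, above 96.4% of the genes tested. Mapk3 followed at 161 ± 8.13 TPM and Mapk14 at 105 ± 7.81 TPM, then Mapk9 at 39.3 ± 2.85 and Mapk8 at 23.5 ± 0.551 TPM. Mapk11 stood at 5.15 ± 1.19 TPM and Mapk12 at 1.37 ± 0.715 TPM. Neighbours in this order did not overlap in any column in DMSO. In LPS + Ska the columns of Mapk3 and Mapk14 did overlap, as did those of Mapk13 and Mapkapk3 in LPS.

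Mapk13 and Mapkapk3 were at the lower end and were not tested. Mapk13, which encodes the p38δ isoform, read 0.404, 0.190 and 0.275 TPM in DMSO, 0.236, 0.506 and 0 with LPS, and 0.124, 0.0759 and 0.173 with LPS + Ska. All 9 of its columns were below 1 TPM, and the LPS columns spanned those of both other groups, which did not overlap each other. Mapkapk3, which encodes a kinase closely related to MK2, was listed at 0 in every column of DMSO and LPS + Ska, and read 0.0145, 0 and 0.0436 TPM with LPS.

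**Figure D1:**
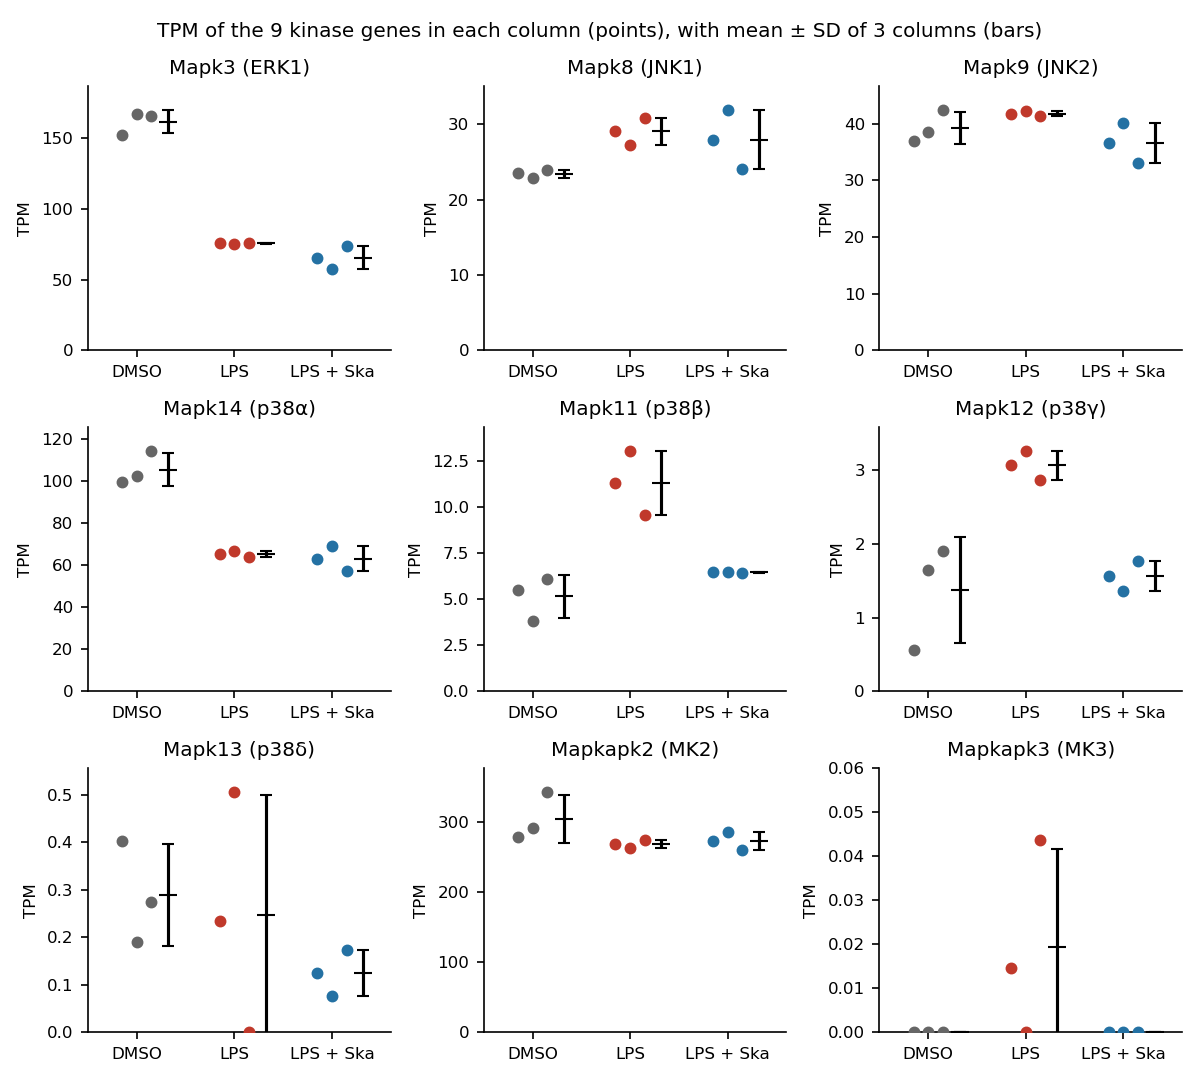
TPM of each kinase gene (linear axis from 0, one scale per gene) in the DMSO, LPS and LPS + Ska columns; points are columns 5, 6 and 7 from left to right, and the bar beside them is the mean ± SD of the 3 columns. Mapk3 and Mapk14 were lower in both groups with LPS, Mapk11 and Mapk12 were highest in LPS alone, and Mapk8 was lowest in DMSO. Over all columns Mapkapk2 ran from 260 to 343 TPM, Mapk8 from 22.9 to 31.9 TPM and Mapk9 from 33.1 to 42.4 TPM.

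The first comparison, LPS with DMSO, asks how the kinase genes respond to the bacterial stimulus. Of the 7 genes tested, 2 were called higher and 2 lower, and 32.7% of all genes tested were called in this comparison (12.7% higher and 20.0% lower). The abundant ERK1 and p38α genes fell, and the scarce p38β and p38γ genes rose.

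Mapk3 encodes ERK1, one of the pair of ERK kinases that growth factor and Toll-like receptor signals activate. It read 152, 167 and 165 TPM in DMSO, 75.5, 75.1 and 75.9 TPM with LPS, and 65.4, 57.4 and 73.3 TPM with LPS + Ska. The lowest DMSO column was above every column with LPS. The level fell by 53.2% with LPS, a log2 fold change of -1.08 (SE 0.08, 95% interval -1.27 to -0.90, adjusted p = 6.2e-06 by limma). It was called lower under every one of the 22 alternative settings. Of these, adjusted p alone drops the fold change limit and so could not remove a call. Leaving out an LPS + Ska column left this fold change as it was and could alter only its p-value. Mapk3 had no overlapping annotated gene.

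Mapk14 encodes p38α, the main p38 isoform of macrophages and the target of most p38 inhibitors. It read 99.5, 103 and 114 TPM in DMSO, 65.5, 66.9 and 64.0 TPM with LPS, and 63.2, 69.0 and 57.3 TPM with LPS + Ska. The DMSO columns lay above all 6 columns of the other groups, which overlapped each other. The level fell by 37.9% with LPS, a log2 fold change of -0.68 (SE 0.08, 95% interval -0.85 to -0.50, adjusted p = 7.3e-05 by limma). Once the trend of each column on GC content was removed, the value was -0.49, inside the fold change limit.

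Mapk11 encodes p38β, the isoform closest to p38α, which the same inhibitors block. It read 5.52, 3.81 and 6.10 TPM in DMSO, 11.3, 13.0 and 9.57 TPM with LPS, and 6.45, 6.47 and 6.43 TPM with LPS + Ska. Every LPS column was above every column of the other groups, and the LPS + Ska columns sat just above the highest DMSO column. The mean TPM rose by 119.6%. The log2 fold change, fitted after 1 TPM was added and so smaller than that rise, was 1.01 (SE 0.16, 95% interval 0.66 to 1.37, adjusted p = 4.5e-04 by limma). All 22 alternatives kept that call, with the same limits on what they could change as for Mapk3.

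Mapk12 encodes p38γ, an isoform best known from skeletal muscle and insensitive to the usual p38 inhibitors. It read 0.560, 1.65 and 1.91 TPM in DMSO, 3.06, 3.26 and 2.87 TPM with LPS, and 1.57, 1.37 and 1.77 TPM with LPS + Ska. The 3 LPS columns were the highest of the 9, and DMSO replicate 5 was the lowest. The log2 fold change in LPS compared with DMSO was 0.83 (SE 0.22, 95% interval 0.32 to 1.33, adjusted p = 0.010 by limma). Without DMSO replicate 5 it was 0.55, inside the fold change limit. At these levels the added value of 1 TPM holds the fitted change below the ratio of the mean TPM, which was 2.23.

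The JNK genes and MK2 were not called. Mapk8 read 23.6, 22.9 and 23.9 TPM in DMSO, 29.1, 27.3 and 30.8 TPM with LPS, and 28.0, 31.9 and 24.0 TPM with LPS + Ska. Its LPS columns were above the DMSO columns, at a log2 fold change of 0.30 (SE 0.10, adjusted p = 0.026 by limma) that lay inside the fold change limit. Mapk9 read 36.9, 38.5 and 42.4 TPM in DMSO, 41.8, 42.3 and 41.3 TPM with LPS, and 36.6, 40.1 and 33.1 TPM with LPS + Ska. Its DMSO columns overlapped those of LPS, and the difference was 0.09 (95% interval -0.09 to 0.27, adjusted p = 0.36). Mapkapk2, whose product MK2 is the p38α effector that acts on the mRNA-binding protein tristetraprolin, read 278, 292 and 343 TPM in DMSO, 269, 263 and 275 TPM with LPS, and 273, 287 and 260 TPM with LPS + Ska. Its LPS columns were below the DMSO columns, by -0.17 (95% interval -0.35 to 0.00, adjusted p = 0.077). With the GC trend removed all 3 genes took the opposite sign, at -0.16 for Mapk8 (adjusted p = 0.11), -0.12 for Mapk9 (adjusted p = 0.18) and 0.29 for Mapkapk2 (adjusted p = 0.033), each inside the fold change limit.

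The second comparison, LPS + Ska with LPS, asks what skatole changed in cells that also received LPS. No kinase gene was called higher and 1 of the 7 tested was called lower, and 9.49% of all genes tested were called (3.35% higher and 6.14% lower). With the recovered values 7.82% of all genes were called. The gene called was Mapk11, whose mean level fell by 42.9%, from 11.3 ± 1.73 to 6.45 ± 0.0205 TPM (SD, n = 3 tied columns each). The log2 fold change, again fitted on log2(TPM + 1), was -0.71 (SE 0.16, 95% interval -1.07 to -0.36, adjusted p = 0.0099 by limma, from 0.0040 to 0.044 over 22 alternatives, all of which kept the call). Fitted to the recovered values it was -0.72 (adjusted p = 0.039). The 2 recovered values were 6.46 and 6.44 TPM with LPS + Ska, against 12.2 and 10.4 TPM with LPS.

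Mapk12 had a difference of similar size, from 3.06 ± 0.193 to 1.57 ± 0.203 TPM (SD, n = 3 tied columns each), without passing the limit. Its log2 fold change was -0.66 (SE 0.22, 95% interval -1.17 to -0.16, adjusted p = 0.052). The adjusted p ranged from 0.0049 to 0.16 over 21 alternatives, of which 15 left it uncalled, and was 0.16 with the recovered values. The study names both Mapk11 and Mapk12 as down-regulated by skatole in this contrast, whereas the fit here left Mapk12 uncalled. The study used these same samples and chose the genes it shows, so their direction is not independent evidence. Set against DMSO, the LPS + Ska levels gave log2 fold changes of 0.30 for Mapk11 (95% interval -0.06 to 0.65, adjusted p = 0.13) and 0.16 for Mapk12 (95% interval -0.34 to 0.67, adjusted p = 0.54). With the GC trend removed, Mapk11 was called higher in LPS + Ska than in DMSO, at 0.66 (adjusted p = 0.0071, and 0.016 with the recovered values).

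None of the 5 more abundant kinase genes was called between LPS + Ska and LPS. Mapk3 had a log2 fold change of -0.21 (95% interval -0.40 to -0.02, adjusted p = 0.088), with all LPS + Ska columns below all LPS columns. Mapk9 had -0.19 (95% interval -0.37 to -0.01, adjusted p = 0.11), also without overlap of the columns. The intervals for the other 3 tested genes covered 0 and excluded a change of 1.5-fold in either direction. They ran from -0.23 to 0.12 for Mapk14, from -0.28 to 0.16 for Mapk8, and from -0.15 to 0.20 for Mapkapk2.

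The third comparison, LPS + Ska with DMSO, shares its samples with the other two. Of the 7 genes, 2 were called lower and none higher, and 36.7% of all genes tested were called (11.4% higher and 25.3% lower). Mapk3 fell by 59.5%, a log2 fold change of -1.30 (SE 0.08, adjusted p = 1.8e-06 by limma). Mapk14 fell by 40.1%, a log2 fold change of -0.73 (SE 0.08, adjusted p = 3.8e-05), and this was -0.54 after median-ratio scaling and -0.55 with the GC trend removed, both inside the fold change limit. Mapk8 stood at 0.24 (adjusted p = 0.062), Mapk9 at -0.10 (adjusted p = 0.31) and Mapkapk2 at -0.15 (adjusted p = 0.11). These directions turned with the GC trend removed for Mapk8 (-0.25, adjusted p = 0.022) and Mapkapk2 (0.30, adjusted p = 0.025), and with median-ratio scaling for Mapk9 (0.090) and Mapkapk2 (0.043), all inside the fold change limit.

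**Figure D2:**
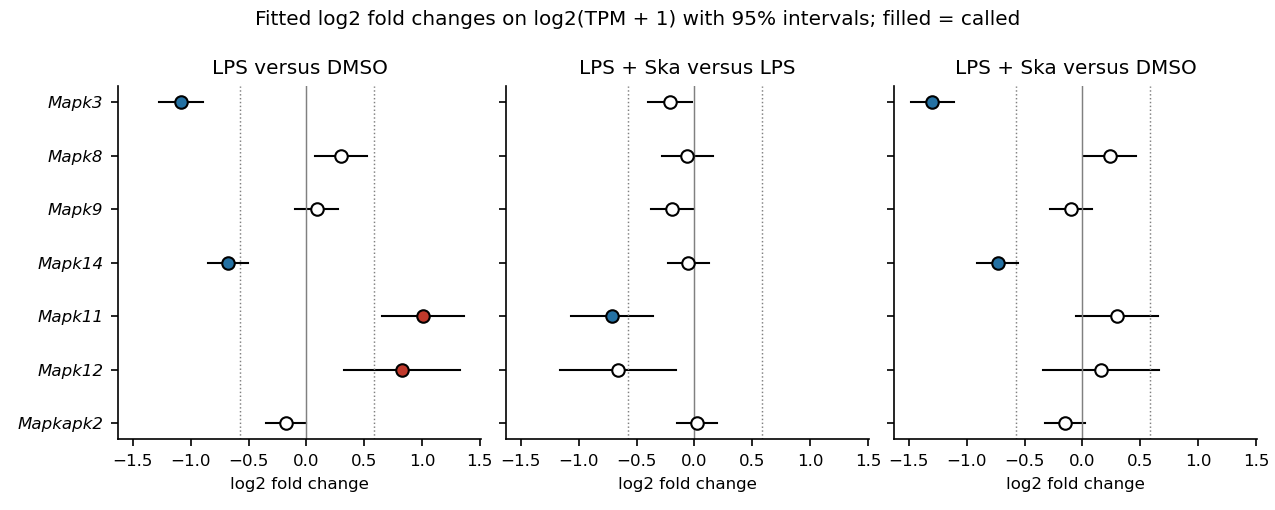
Fitted log2 fold changes on the log2(TPM + 1) scale (horizontal axis) of the 7 tested kinase genes in the 3 comparisons; lines are 95% intervals, dotted lines the fold change limits, and filled points the called genes, red higher and blue lower. Mapk3 and Mapk14 are called lower against DMSO in both groups with LPS, and Mapk11 is the one gene called in LPS + Ska compared with LPS.

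Since TPM is a level per length, the isoforms of a family can be summed and each given as a share of its family. The summed level of the p38 genes was 112 ± 9.01 TPM in DMSO, 80.1 ± 3.64 TPM under LPS and 71.3 ± 5.60 TPM under LPS + Ska (SD, n = 3 columns). Mapk14 supplied 94.0% ± 0.775 of it in DMSO, 81.8% ± 1.89 with LPS and 88.5% ± 1.23 with LPS + Ska. The share of Mapk11 was 4.57% ± 0.915, 14.1% ± 1.52 and 9.09% ± 0.686 in the same order, and that of Mapk12 was 1.20% ± 0.584, 3.82% ± 0.0678 and 2.23% ± 0.461. The columns of the 3 groups did not overlap in the share of Mapk11, with ranges of 3.52% to 5.21%, 12.5% to 15.6% and 8.42% to 9.79%. A share also moves with the rest of the sum. From DMSO to LPS + Ska, Mapk14 went from 105 to 63.2 TPM and Mapk11 from 5.15 to 6.45 TPM, a difference in Mapk11 that was not called. Thus p38α RNA made up most of the p38 pool in every sample, and p38β and p38γ together had their largest share with LPS alone.

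The third JNK gene, Mapk10, which is known mainly from neurons, was listed at 0 in DMSO and LPS and at most at 0.000914 TPM in a column of LPS + Ska. Mapk8 and Mapk9 summed to 62.7 ± 3.18 TPM in DMSO, 70.9 ± 1.23 TPM under LPS and 64.6 ± 7.43 TPM under LPS + Ska, and Mapk8 made up 37.4% ± 1.47, 41.0% ± 1.76 and 43.2% ± 1.11. Mapkapk2 supplied at least 99.98% of the summed Mapkapk2 and Mapkapk3 level in every column.

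**Figure D3:**
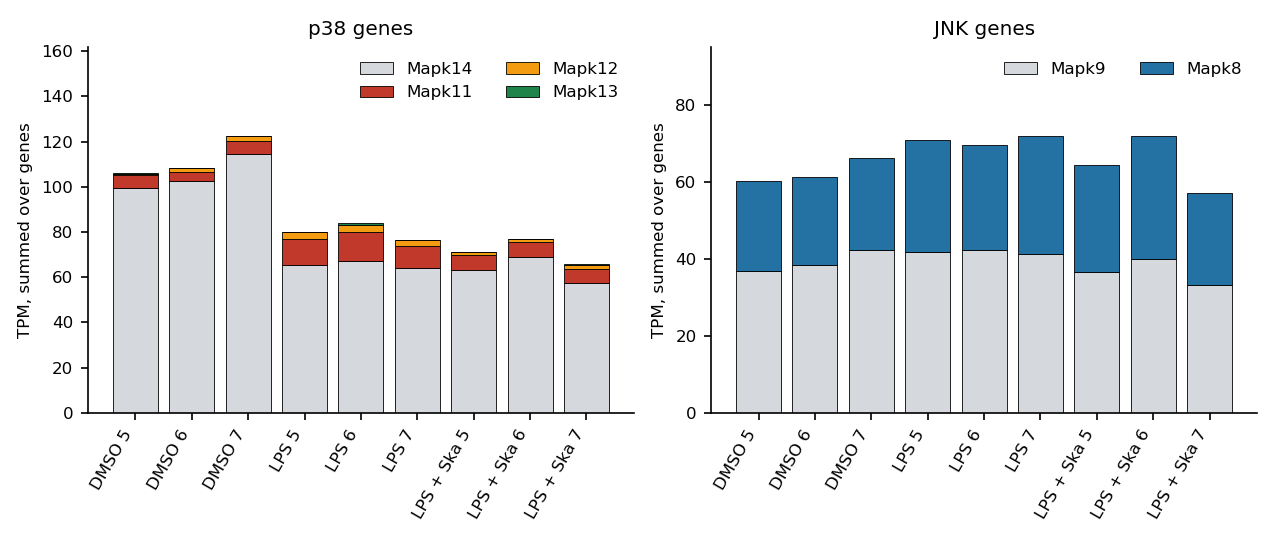
Summed TPM (vertical axis, from 0) of the p38 genes (left) and of the JNK genes Mapk8 and Mapk9 (right) in each of the 9 columns; colours are genes. Mapk14 fills 81.8% of the p38 pool with LPS against 94.0% in DMSO, and Mapk9 is the larger part of the JNK pool in every column.

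The promoters of Mapk11 and Mapk12 are shown because these neighbouring genes were the kinase genes called higher with LPS. The 250 bases before the RefSeq start (build GRCm38.p6, minus strand) are given 5′ to 3′, with GGGCGG on either strand, the core of a GC box, in capitals, where CCGCCC is its reverse complement. They lie at chr15:89149607-89149856 for Mapk11 and at chr15:89140704-89140953 for Mapk12.
Mapk11 promoter: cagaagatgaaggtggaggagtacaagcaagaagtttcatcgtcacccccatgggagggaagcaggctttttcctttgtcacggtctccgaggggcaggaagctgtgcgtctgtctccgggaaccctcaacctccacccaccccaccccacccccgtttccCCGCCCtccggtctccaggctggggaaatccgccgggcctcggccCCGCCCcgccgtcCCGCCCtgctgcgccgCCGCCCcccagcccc
Mapk12 promoter: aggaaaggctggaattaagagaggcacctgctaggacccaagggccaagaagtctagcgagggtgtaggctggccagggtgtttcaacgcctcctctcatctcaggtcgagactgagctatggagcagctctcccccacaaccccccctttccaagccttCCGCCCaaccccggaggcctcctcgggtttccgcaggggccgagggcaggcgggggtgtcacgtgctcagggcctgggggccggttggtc
GC content was 68% for Mapk11 and 64.4% for Mapk12, with 4 GC boxes in Mapk11 and 1 in Mapk12. GGGCGG was also found in promoter windows of Mapk8, Mapk9, Mapk13, Mapk14 and Mapkapk2, and in 35.7% of the 32851 mouse promoter windows of 300 bases (250 before to 50 after the start). The kappaB consensus, bound by NF-kappaB, was in 8.46% of the windows, the AP-1 site TGANTCA in 7.81%, the cAMP response element TGACGTCA in 1.79% and the TATA box TATAAA in 13.6%. None of these was found in a kinase gene's window, on either strand. The interferon-response core TTTCNNTTTC was in 3.44% of windows and in 1 window each of Mapk14 and Mapkapk3. No window was matched for Mapk3. These are exact matches of letters, in which near matches were not counted, and no measure of binding.

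The levels of 2 kinase genes had the widest range between group means, and the genes most like them were sought by Pearson correlation of log2(TPM + 1) over the 9 columns, a description in which the points are shared samples and tied columns. For Mapk3, with a range of 1.30 on the log2 scale, they were Nucb1 (r = 0.9995), Nr1h2, which encodes the liver X receptor β (r = 0.998), and Arpc1b, a subunit of the Arp2/3 complex (r = 0.998). For Mapk11, with a range of 1.01, they were Ofd1 (r = 0.982), Ddx31 (r = 0.978) and Nif3l1 (r = 0.969). Nr1h2 averaged 68.1 TPM in DMSO, 35.0 TPM under LPS and 31.6 TPM under LPS + Ska, and Ofd1 averaged 6.48, 8.87 and 6.97 TPM.

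The rest of the relay was described with 8 lists of 91 genes written for this purpose, of which 75 were tested. In LPS compared with DMSO, 10 were called higher and 19 lower, 38.7% of those tested against 32.7% of all genes, with a median log2 fold change of -0.06 against -0.07. With the GC trend removed 6 were higher and 11 lower, 16 of the 29 calls were kept, and 21.7% of all genes were called. With median-ratio scaling 14 were higher and 17 lower. In LPS + Ska compared with LPS, 1 was called higher and 2 lower, 4% against 9.49% of all genes, with a median of -0.20 against -0.10. With the recovered values 1 was higher and 1 lower, and 7.82% of all genes were called. In LPS + Ska compared with DMSO, 5 were higher and 29 lower, 45.3% against 36.7%, but median-ratio scaling gave 14 higher and 20 lower (25 of the 34 calls kept, 34.8% of all genes called) and removal of the GC trend 5 higher and 17 lower (18 of 34 kept, 27.3% of all genes called).

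The upstream kinases are the MAP2K and MAP3K genes. Of 6 tested MAP2K genes, 1 was called lower with LPS and none with skatole. It was Map2k7, which activates JNK, at 37.5 ± 4.53 TPM in DMSO and 23.2 ± 0.970 TPM with LPS (log2 fold change -0.67, adjusted p = 1.6e-04). Map2k3, an activator of p38, averaged 142 TPM in DMSO, 112 TPM under LPS and 109 TPM under LPS + Ska, and Map2k6, another activator of p38, was not tested. Of 20 tested MAP3K genes, 7 were called lower and 1 higher with LPS (20.0% and 12.7% of all genes tested), and the largest changes were in Map3k9 (-1.78, from 4.10 to 0.472 TPM) and Map3k6 (-1.29, from 3.05 to 0.662 TPM). In LPS + Ska compared with LPS, 3.35% of all genes tested were called higher and 6.14% lower. There Map3k15 was the MAP3K gene called, lower at 2.57 ± 0.379 against 4.46 ± 0.739 TPM (log2 fold change -0.61, adjusted p = 0.024). It lost that call in 9 alternatives, where the adjusted p reached 0.086, and it was 0.069 with the recovered values.

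Among the 4 tested MAP kinases outside the 9 genes, Nlk, which encodes Nemo-like kinase, was called higher with LPS (0.63, from 17.6 to 27.8 TPM) and none was called with skatole. The 12 tested adaptors and scaffolds had 2 genes higher and 2 lower with LPS and none called with skatole. The largest changes were in Tab1, a partner of TAK1 that also binds p38α (-1.35, from 23.9 to 8.79 TPM), and Mapk8ip3, a JNK scaffold (-0.85, from 47.0 to 25.4 TPM). The 7 tested downstream kinases had 1 higher and 2 lower with LPS and none called with skatole. The 2 lower were Mknk2, which phosphorylates the translation factor eIF4E (-1.07), and Rps6ka4, which encodes MSK2 (-0.84). With the GC trend removed, Nlk, Map2k7, Mapk8ip3, Mknk2 and Rps6ka4 were no longer called. For these lists too, the shares over all genes tested were 12.7% higher and 20.0% lower with LPS. They were 3.35% higher and 6.14% lower in LPS + Ska compared with LPS.

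The substrates of the kinases were grouped as transcription factors and as targets of MK2. Of 12 transcription factors, 1 rose and 2 fell with LPS, and none was called with skatole. Jun, the substrate that gave JNK its name, fell by 1.59 on the log2 scale (from 82.7 to 26.6 TPM), and Atf2, a substrate of p38 and JNK, rose by 1.03 (from 32.3 to 66.8 TPM) but was not called with the GC trend removed. Of the 6 tested MK2 substrates, 4 fell with LPS and none rose. Of all genes tested, 20.0% were called lower and 12.7% higher with LPS, and 6.14% lower and 3.35% higher in LPS + Ska compared with LPS. Lsp1, a leukocyte protein that binds actin, was 63.2 ± 3.33 TPM in DMSO, 8.42 ± 2.01 TPM under LPS and 3.86 ± 1.22 TPM under LPS + Ska. Its log2 fold change was -2.79 with LPS (adjusted p = 3.6e-06) and -0.96 between LPS + Ska and LPS (adjusted p = 0.0071). Rcsd1, which encodes an actin-capping protein regulator, fell by 1.24 with LPS (from 10.2 to 3.803 TPM).

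The phosphatases that switch MAP kinases off moved in both directions. Of 8 tested genes, 4 rose and 1 fell with LPS, and 1 rose in LPS + Ska compared with LPS. Among all genes tested, 12.7% were called higher and 20.0% lower with LPS. Between LPS + Ska and LPS, 3.35% were called higher and 6.14% lower. Dusp1, which removes phosphate from p38 and JNK, averaged 57.1 ± 13.3 TPM in DMSO, 10.3 ± 0.2005 TPM under LPS and 18.6 ± 0.213 TPM under LPS + Ska (SD, n = 3 columns). It fell by 2.34 on the log2 scale with LPS (adjusted p = 9.4e-07) and rose by 0.80 from LPS to LPS + Ska (SE 0.13, adjusted p = 0.0027, and 0.019 with the recovered values). No alternative changed either call, and the columns of the 3 groups did not overlap. Dusp5, a nuclear phosphatase of ERK, rose by 1.87 with LPS (from 7.09 to 28.2 TPM) and stood at 25.6 TPM with LPS + Ska. Of the LPS-responsive cytokine and mediator genes, 5 of 10 fell in LPS + Ska compared with LPS, with the largest changes in Ccl5 (-2.86), Il6 (-2.08), Il1a (-1.95) and Cxcl10 (-1.52).

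**Figure D4:**
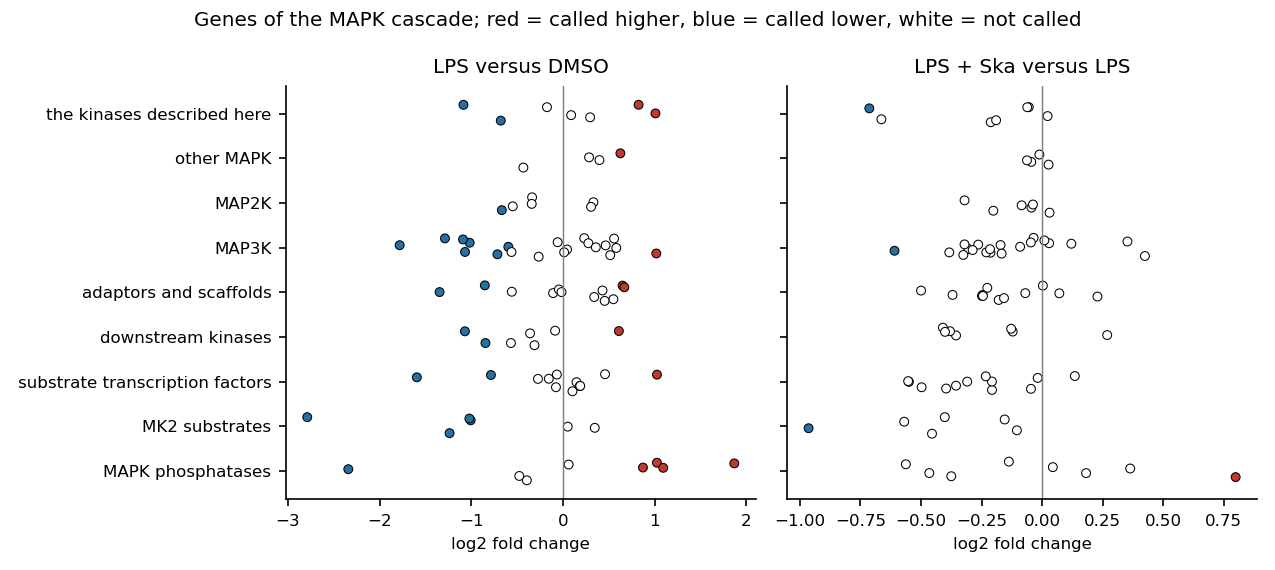
Log2 fold changes (horizontal axis, log2(TPM + 1) scale) of the tested genes of the MAP kinase relay, 1 point per gene and 1 line per list, in LPS compared with DMSO (left) and LPS + Ska compared with LPS (right); red points are called higher, blue lower and white not called. The left panel holds 10 red and 19 blue points beside the kinase genes described here, and the right panel 1 red (Dusp1) and 2 blue (Lsp1 and Map3k15).

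The GC content of a gene's longest transcript moved with its change in the comparisons with DMSO. Across the 12805 genes with a value, log2 fold change and GC content had a Pearson r of -0.45 in LPS compared with DMSO, -0.0063 in LPS + Ska compared with LPS and -0.45 in LPS + Ska compared with DMSO. These are correlations across genes, which are not independent replicates. Across the 75 tested genes of the relay r was -0.59 in LPS compared with DMSO. The genes called higher with LPS had a median GC content of 43.7% and those called lower 54.9%, against 49.2% for all. Mapk3 and Mapkapk2 (57.6% each) and Mapk14 (52.5%) are above that median and Mapk8 (40.1%) and Mapk9 (45.7%) below it, whereas Mapk11 (56.1%) and Mapk12 (56.0%) are above it and rose with LPS. With the GC trend removed the change of Mapk3 with LPS was -0.62, still called lower. The part of base composition in these changes was not otherwise tested.

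**Figure D5:**
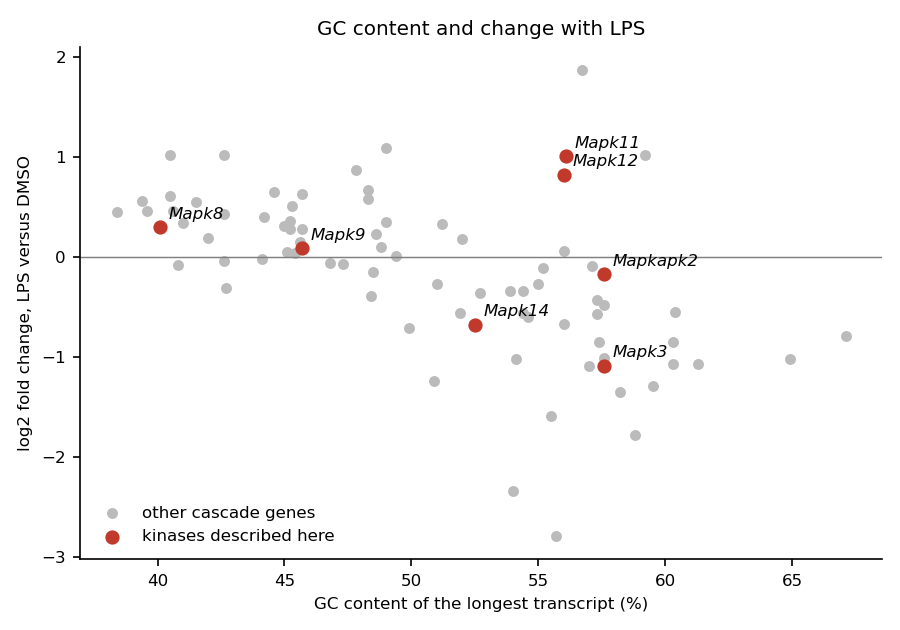
GC content of the longest transcript (horizontal axis, %) and log2 fold change in LPS compared with DMSO (vertical axis, log2(TPM + 1) scale) for the genes of the MAP kinase relay (grey) and the 7 tested kinase genes (red, labelled). Mapk11 and Mapk12, at 56.1% and 56.0% GC, lie above 0 while most grey points of that GC content lie below it.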

How the data were processed

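RNA from 9 samples of RAW264.7 cells (DMSO, LPS and LPS + Ska, 3 each) was sequenced. The authors deposited TPM per gene for 55401 Ensembl identifiers, of which 55141 matched a symbol. The submitters' processing notes name fastp 0.20.1, HISAT2 2.2.1, StringTie 2.0 and the build mm10, without roles, and the annotation is not given in the sources used here. TPM keeps no depth, so no counting error could be given. The library kit's protocol states no strand setting. The treatment time follows the labels, and the methods section gives a longer one.

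Groups came from the labels. Log2(TPM + 1) of the 12819 genes whose TPM averaged 1 or more was fitted with limma 3.58.1 in R 4.3.3 (lmFit, eBayes with trend), all 9 columns in 1 fit, and p-values were adjusted by Benjamini-Hochberg. A gene was called where the adjusted p was under 0.05 and the fold change over 1.5 or under 0.67. The fit was also run on simulated data with independent and with tied columns. The outcome of that run is not reported here and is not used as support for the p-values. Because replicate 5 equals the mean of replicates 6 and 7 in both groups with LPS, recovered values (replicate 5 plus and minus 0.5 times its difference from replicate 6) were fitted as an alternative. The step that tied the columns is not described in the sources used here.

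The kinase genes and the lists were chosen with earlier results of these data known. Named were the 9 kinase genes, the genes of each list called in LPS + Ska compared with LPS (at most 4), the 2 called genes per list with the largest change with LPS, and the 3 genes most like each of the 2 kinase genes of widest range. Values of genes outside this rule (Map2k3, Map2k6 and Mapk10) were added after seeing them, and some results are not reported here.

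Same-numbered columns of LPS and LPS + Ska deviated from their group means with correlations of 0.384, 0.151 and 0.128, which are not 3 separate observations because these columns are tied. The other pairs of groups gave -0.032 to 0.0801, so the replicate numbers were not treated as pairs. Loop sequences, GC content and positions came from GENCODE M21 (GRCm38), and promoters from RefSeq (GRCm38.p6). The results were refitted with median-ratio scaling, a pseudocount of 0.1, a limit of 5 or none on mean TPM, no trend, a replicate block, the compared groups alone, adjusted p alone, recovered values and each column left out, and, chosen after seeing the data, removal of trends on GC content or length (loess, span 0.3), also with recovered values. Scripts used Python 3.11.15 and matplotlib 3.10.9.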

Additional observations from a re-analysis of the deposited data

How the results depend on the processing

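The 21 fold changes of the 7 tested kinase genes were refitted under up to 22 alternatives, giving 459 values, of which 424 kept their direction and their side of the limits, 9 passed the limits only in the alternative, 6 no longer passed them and 20 reversed. Adjusted p alone could not remove a call, and leaving out a column of the group not compared left a fold change as it was. The count of kinase genes called in LPS + Ska compared with LPS went from 1 to 2, by the addition of Mapk12, with no intensity trend, with the GC or the length trend removed and with the compared groups alone, and ranged from 1 to 2 when a column was left out (2 without DMSO replicate 5 or 7). In LPS + Ska compared with DMSO it went from 2 to 1 with median-ratio scaling, and in LPS compared with DMSO it ranged from 3 to 4 when a column was left out. Over all genes, the 4189 calls in LPS compared with DMSO became 2785 with the GC trend removed. They became 2736 when recovered values were used too. These removals added back the median of the trend fitted to each column. With adjusted p alone the calls numbered 7734, 3663 and 8116 over all genes in the 3 comparisons, in the order of the text, and 66, 31 and 65 over the pathway lists and the LPS-responsive genes, against 39, 8 and 43. Reversed values were small in size. In LPS compared with DMSO they were -0.16 for Mapk8, -0.12 for Mapk9 and 0.29 for Mapkapk2, each with the GC trend removed and the same to 2 decimals when recovered values were used too. In LPS + Ska compared with LPS they were 0.038 (median-ratio scaling), 0.027 and 0.032 (length trend removed, without and with recovered values) and 0.039 (without LPS + Ska replicate 7) for Mapk8, 0.047 (median-ratio scaling) and 0.012 (without LPS + Ska replicate 7) for Mapk14, and -0.012 (without LPS + Ska replicate 6) for Mapkapk2, against 0.058 without LPS + Ska replicate 7. In LPS + Ska compared with DMSO they were -0.25 and -0.24 for Mapk8 (GC trend removed, without and with recovered values), 0.090 for Mapk9 and 0.043 for Mapkapk2 (median-ratio scaling), 0.30 for Mapkapk2 (GC trend removed, with and without recovered values) and -0.11 for Mapk12 (without DMSO replicate 5, against 0.34 without DMSO replicate 7). The cause was not tested. A mean TPM of at least 5 left out Mapk12. With the replicate number as a block, 4, 1 and 2 kinase genes were called in the 3 comparisons and Mapk11 had an adjusted p of 0.025 between LPS + Ska and LPS, and the block changed no call of a kinase gene.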
